A study of Mus musculus with 37 samples.

Results

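Hsd3b5, Elovl3, Selenbp2, Cux2, Bcl6 and A1bg are liver genes whose level in the mouse follows the sex-dependent rhythm of growth hormone in blood. They were selected by gene symbol, and all probes carrying those symbols were read, which gave 10 probes of 6 genes among 30146 probes and 21450 gene symbols. All 10 were among the 18570 probes that passed the filter on low counts. The livers came from adult CD1 mice, an outbred stock, of genotype WT, and were assayed as fixed, paraffin-embedded sections by TempO-Seq, in which the reads on each gene-specific probe are counted. The mice had received HFPO-DA, a short-chain perfluoroalkyl ether acid given as its ammonium salt, in deionized water by daily gavage. Of 40 livers assayed, 5 in each group, 3 had been left out for low sequencing quality, 1 each from males at 5 mg/kg and from females at 0.5 and 5 mg/kg. The set analysed here held 37 mice, with 5 males each at 0 (deionized water alone), 0.1 and 0.5 mg/kg and 4 at 5 mg/kg, and with 5 females each at 0 and 0.1 mg/kg and 4 each at 0.5 and 5 mg/kg. Males were about 6 weeks old at the first dose and received 84 to 85 doses, 70 days of them before mating. Females were about 11 weeks old, received 53 to 65 doses and were sampled as dams on lactation day 20 or 21. Sex, age, number of doses and reproductive state therefore differed together between the male and the female cohort and cannot be told apart, whereas each dose was compared within a cohort.

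The pituitary of a male mouse releases growth hormone in spaced pulses, and that of a female releases it more continuously. In hepatocytes the hormone acts through its receptor, JAK2 and the transcription factor STAT5B, so that pulses hold up male-pattern genes and the continuous supply holds up female-pattern genes. CUX2, itself made in female liver, is a repressor of many male-pattern genes, and BCL6 is a repressor that binds many of the same DNA sites as STAT5.

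Total counts were 2101495 to 10548222 in the 19 males and 7952605 to 13878254 in the 18 females. Of the 4 libraries under 5000000 counts, 2 were among the 4 males at 5 mg/kg (replicates 1 and 3), and the others were male 0.1 mg/kg replicate 4 and male 0.5 mg/kg replicate 2. All 7 hepatocyte markers were detected in every group, with a summed level of 9657 to 20982 CPM per mouse (counts scaled to a library of 1000000, with edgeR's TMM factors). From control to 5 mg/kg the median of that sum went from 14764 to 11230 CPM in males and from 20285 to 14515 in females, and the median sum of the 5 stellate cell markers from 160 to 286 in males and from 190 to 341 in females. Their part in the results at 5 mg/kg was not tested. Summed markers of other cell types were 27.8 to 246 CPM for Kupffer cells, 210 to 387 for endothelial cells, 89.1 to 1119 for stellate cells, 11.2 to 153 for cholangiocytes, at most 18.7 for lymphocytes and at most 55.1 for exocrine pancreas. Adipocyte markers reached 3.24 to 6.18 CPM in males at 5 mg/kg and at most 0.863 in other males, but Cidea was the one marker of 5 detected there, and Adipoq, Lep, Plin1 and Retn were at 0. Counts of the Y-linked gene Ddx3y ran from 31 to 623 over the males and from 0 to 2 over the females. Kdm5d, another Y-linked gene with few counts, was at 0 in all 4 males at 5 mg/kg against 1.22 ± 0.958 CPM in male controls (SD, n = 5; edgeR adjusted p = 0.0795), as were Hsd3b5, Cux2_73600 and Igfals below, and the part of depth in these zeros was not tested. In bulk sections, fewer cells of a type and less RNA per cell cannot be told apart.

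At 5 mg/kg, 5 of the 10 probes were lower in males than in male controls and none was higher (edgeR's quasi-likelihood test, Benjamini-Hochberg adjusted p under 0.10), where 8.49% of all probes tested were called lower. These were both probes of Elovl3, both of Selenbp2 and the low-count probe Cux2_73600. In females at 5 mg/kg, 3 of the 10 probes were lower and none was higher, where 2.26% of all probes were called lower, and these were A1bg and probes Cux2_71776 and Cux2_66345. At 0.1 mg/kg edgeR called none of them in either sex, where 0% of all probes were called. The unadjusted p was under 0.05 for 1 probe in males (Cux2_73600) and for 1 in females (Selenbp2_70614), where 7.14% and 2.38% of all probes had such a p. At 0.5 mg/kg none of the 10 was called either, where 0.625% of all probes in males and 0.113% in females were called. Here 0 of the 10 had an unadjusted p under 0.05 in either sex, where 10.3% and 4.33% of all probes did. DESeq2 also called 0 of the 10 at 0.1 and 0.5 mg/kg in each sex.

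**Figure D1:**
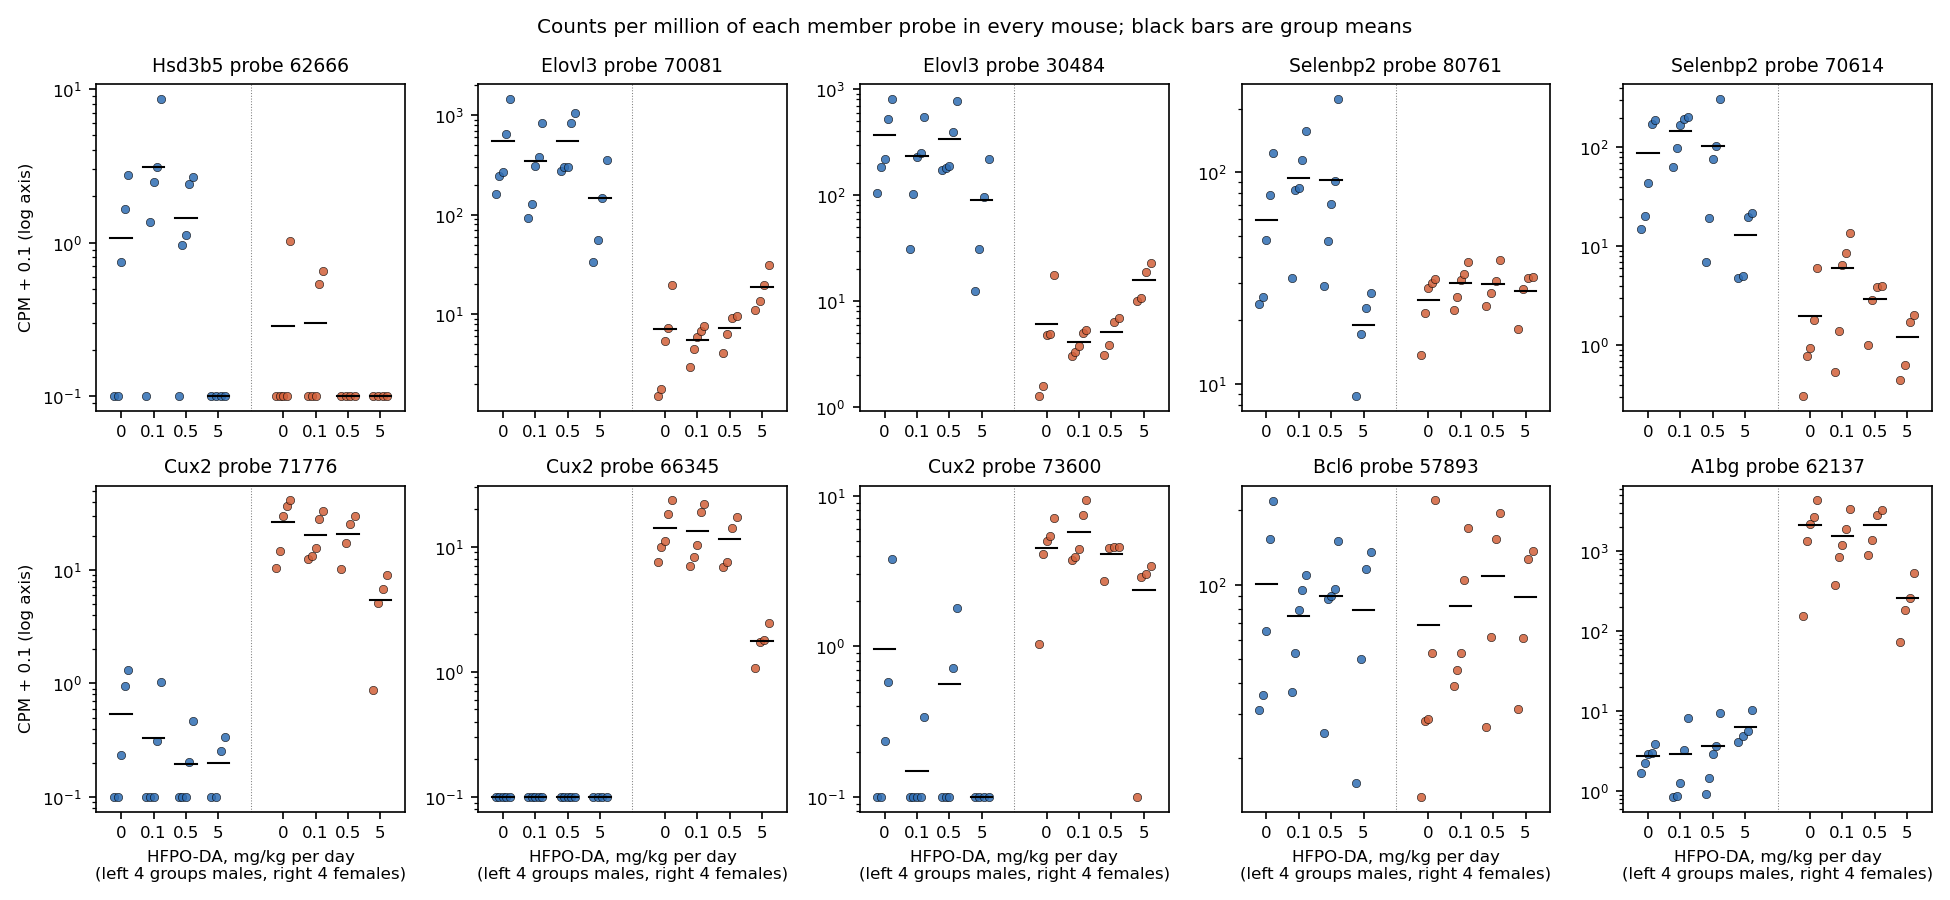
CPM of the 10 probes in each of the 37 mice, on a log axis after adding 0.1 so that mice at 0 can be drawn, with males in blue on the left and females in orange on the right of each panel, ordered by dose in mg/kg per day. Black bars are group means. Group means of males at 5 mg/kg are low for Elovl3 and Selenbp2, although 1 or 2 of the 4 mice lie among the controls, and the 4 females at 5 mg/kg are low for probes Cux2_71776 and Cux2_66345 and for A1bg, whereas groups of Bcl6 lie over each other.

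**Figure D2:**
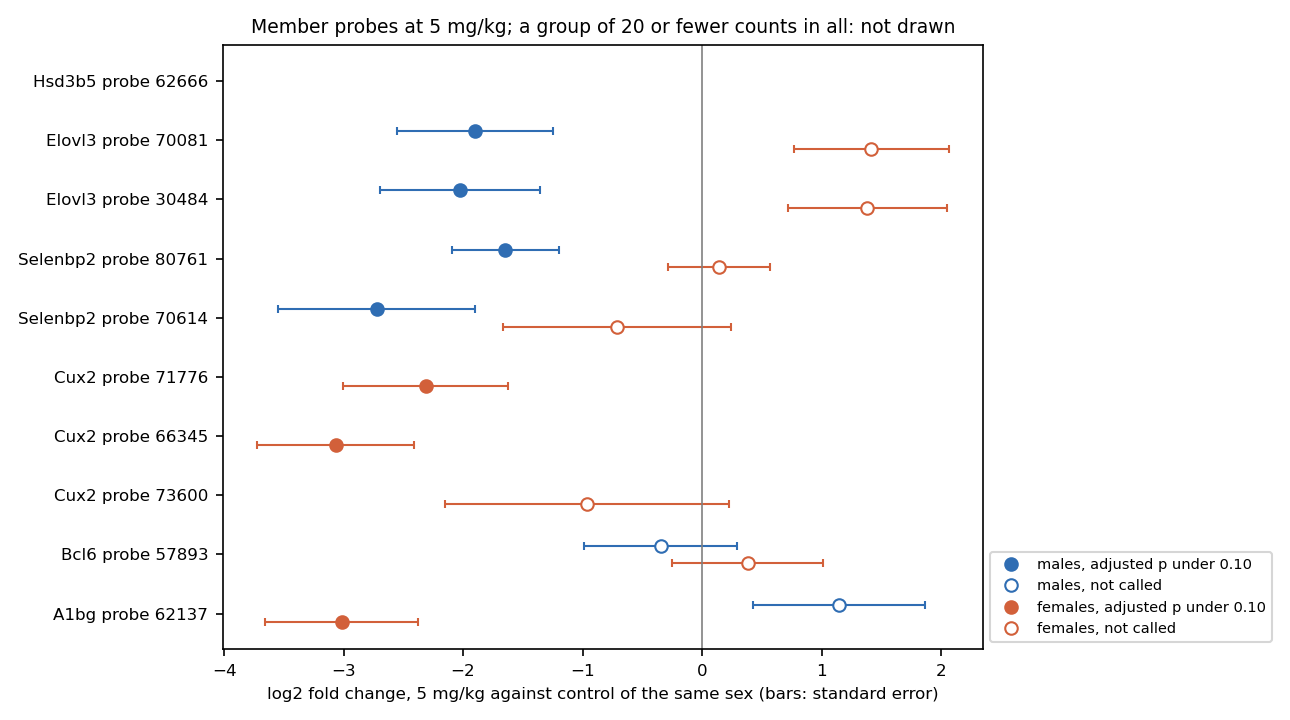
Log2 fold change at 5 mg/kg against the control of the same sex for each probe, with its standard error, in males (blue) and females (orange). Filled points passed an adjusted p under 0.10. Comparisons in which a group held 20 or fewer counts in all are not drawn, which leaves out Hsd3b5 in both sexes and Cux2 in males.

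Cux2, the female-pattern repressor (chr5:121856366-122050102 on the minus strand of GRCm38), was read by 3 probes. By probe Cux2_71776 the 5 control females measured 14.7, 29.8, 10.4, 36.6 and 40.8 CPM. The 4 females at 5 mg/kg measured 8.87, 5.02, 6.67 and 0.766 CPM. Each of the treated females lay below each control, and the log2 fold change was -2.31 (SE 0.69; edgeR adjusted p = 0.0506). Probe Cux2_66345 gave 9.85, 11.1, 7.49, 23.3 and 18.2 CPM in control females against 2.33, 1.64, 0.966 and 1.70 CPM at 5 mg/kg. Again the groups did not overlap, as for 4.31% of all probes in this direction, with a log2 fold change of -3.07 (SE 0.65; edgeR adjusted p = 0.00412). Both probes at 0.1 and 0.5 mg/kg overlapped the controls, with means of 20.3 ± 9.40 (SD, n = 5) and 20.7 ± 8.77 (SD, n = 4) CPM for probe Cux2_71776 beside 26.5 ± 13.4 (SD, n = 5) in controls.

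The third Cux2 probe, Cux2_73600, was at a lower level in females and was not called at 5 mg/kg there. Control females gave 3.98, 6.96, 0.936, 5.31 and 4.91 CPM, and treated females gave 2.80, 2.92, 3.34 and 0 CPM. The groups overlapped, and the log2 fold change was -0.96 (SE 1.19; edgeR adjusted p = 0.977). Across females the deviations of probes Cux2_71776 and Cux2_73600 from their group means correlated with r = 0.90, and those of Cux2_71776 and Cux2_66345 with r = 0.59, and those of Cux2_66345 and Cux2_73600 with r = 0.34, over 18 mice that share their libraries. The fall in females was thus called by 2 of the 3 probes. With counts thinned to the smallest library neither call held (Cux2_66345 -2.04, adjusted p = 0.4, and Cux2_71776 -1.56, adjusted p = 0.389), and that of Cux2_71776 was also lost without any one of 6 mice (adjusted p = 0.102 to 0.176).

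In males Cux2 was near or at the limit of detection. Probe Cux2_66345 had 0 counts in all 19 males, and in controls the females were at least 179-fold higher, taking 3 counts over the male group as the floor. At 5 mg/kg the same bound was at least 12.1-fold. Probe Cux2_71776 had at most 10 counts in any male. By that probe the log2 difference of male from female controls was -5.86 (SE 0.79; edgeR adjusted p = 1.2e-06), and no male control overlapped them. Probe Cux2_73600 gave the fifth call in males at 5 mg/kg, where all 4 mice had 0 counts against 4, 0, 1, 0 and 26 counts in controls. Of these 31 control counts 26 came from replicate 5, and 2 control males were at 0 like the treated ones, so that most counts behind this call came from 1 library.

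Bcl6, the other repressor (chr16:23965052-23988852, minus strand), was not called in any of the comparisons. Control males measured 219, 35.8, 65.0, 31.2 and 152 CPM, and males at 5 mg/kg measured 116, 15.7, 49.9 and 136 CPM. Control females measured 52.8, 28.1, 219, 28.5 and 13.8 CPM, and females at 5 mg/kg measured 128, 31.6, 61.1 and 137 CPM. The groups overlapped widely within each sex and between the sexes. At the top dose males had a log2 fold change of -0.34, with an approximate 95% interval of -1.60 to 0.91, and females one of 0.38, with an interval of -0.85 to 1.62. Male against female controls gave 0.56 (SE 0.60; edgeR adjusted p = 0.947). Changes inside these bounds could not be told from no change in these groups. Without male control replicate 1, the mouse with the most Bcl6 in its group, the male value became 0.14. Bcl6 is also made by lymphocytes, and the 6 lymphocyte markers summed to at most 18.7 CPM in any mouse. Their part in the Bcl6 values was not tested.

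Bcl6 varied more between mice of the same group than most probes of like level. Its SD of log2 CPM within groups was 1.08 in males and 1.202 in females. That was above 98.7% of the 2119 male probes and 99.3% of the 2451 female probes within 1 log2 unit of its mean. Elovl3 and Selenbp2 in males and A1bg in females were by this measure above 97.3% to 99.7% of probes of like level. In females probe Cux2_71776 was above 98%, and Cux2_73600 and Cux2_66345 were above 87% and 76.8%.

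The bases before the Bcl6 start sites are shown because growth hormone acts on DNA through STAT5, whose sites have the form TTCNNNGAA. RefSeq windows (GRCm38.p6) of the 250 bases before each start were searched on both strands for this motif, for a PPAR-type direct repeat (DR1), for an HNF6-type core, ATTGAT, and for a CUX2-type core, ATCGAT. Of 32851 such windows, 7.02%, 0.338%, 6.72% and 0.728% held them. The 2 Bcl6 windows held 4 STAT5-type matches, 1 in the upstream window and 3 in the one below, whose matches are in capitals (chr16:23981284-23981533, minus strand).
Bcl6: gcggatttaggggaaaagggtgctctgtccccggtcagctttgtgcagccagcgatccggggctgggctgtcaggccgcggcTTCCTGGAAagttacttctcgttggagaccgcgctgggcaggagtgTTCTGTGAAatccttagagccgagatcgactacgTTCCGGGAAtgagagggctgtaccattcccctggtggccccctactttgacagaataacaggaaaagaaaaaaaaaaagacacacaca
A match describes letters only and is no shown site. The Cux2 window at its downstream start held 1 ATCGAT at bases -72 to -67. The windows of Hsd3b5 and Selenbp2 held none of the 4 motifs. The Hsd3b5 window (chr3:98645535-98645784) does not adjoin the GENCODE span of the gene, which begins at base 98630252 on the minus strand. No window was used for Elovl3. None of the member windows held the PPAR-type repeat, which says only that those letters are not in these bases.

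Among the male-pattern targets, Hsd3b5 (chr3:98618634-98630252, minus strand), a steroid dehydrogenase of the 3-beta family made in male liver, had few counts. Control males had 22, 5, 0, 0 and 11 counts, males at 0.1 mg/kg had 26, 16, 10, 0 and 80, and males at 0.5 mg/kg had 16, 0, 7, 10 and 15. All 4 males at 5 mg/kg had 0 counts, which allows up to 0.134 CPM over the group. Pooled over the 38 counts of the controls, that is a level at least 7.47-fold lower, but 2 of 5 controls were at 0 too and the difference was not called (edgeR adjusted p = 0.124, unadjusted p = 0.0183). In females 9 counts in 1 control and 8 and 5 counts in 2 mice at 0.1 mg/kg were all that was seen, and the 0.5 and 5 mg/kg groups were at 0. With these few counts a sex difference in controls was not called, with a log2 fold change of 2.32 (SE 1.73; edgeR adjusted p = 0.81).

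Paralogs of Hsd3b5 had more counts and were read from a list of 13 relatives of these genes. Hsd3b2 fell in both sexes at 5 mg/kg, from 206 ± 81.1 to 23.6 ± 10.6 CPM in males (SD, n = 5 and 4) and from 57.0 ± 25.9 to 9.03 ± 5.14 CPM in females. The log2 fold changes were -3.14 (SE 0.43) and -2.65 (SE 0.42) (edgeR adjusted p = 1.16e-06 and 3.11e-05). Hsd3b3 fell in males by 0.83 (SE 0.29) on the log2 scale (edgeR adjusted p = 0.0628) and was not called in females, where it went from 243 ± 32.2 to 324 ± 58.2 CPM. Hsd3b2 and Hsd3b3 transcripts align to Hsd3b5 with 77.9% and 76.8% identity, and the probe sequences were not read here.

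Elovl3 (chr19:46131897-46135694, plus strand), an elongase of very long chain fatty acids, fell in males at 5 mg/kg. Probe Elovl3_70081 gave 268, 161, 1448, 245 and 652 CPM in control males. At 5 mg/kg it gave 359, 147, 55.1 and 33.5 CPM. Of the 4 treated males, replicate 1 lay inside the control range and the other 3 below it. The log2 fold change was -1.90 (SE 0.65; edgeR adjusted p = 0.0611), and probe Elovl3_30484 gave -2.02 (SE 0.67; edgeR adjusted p = 0.0507), both close to the threshold of 0.10. The call depended on single mice, since without male control replicate 3 the log2 fold changes were -1.18 (edgeR adjusted p = 0.256) for probe Elovl3_70081 and -1.54 (0.151) for probe Elovl3_30484. Without male 5 mg/kg replicate 3 they were -1.63 (0.17) and -1.67 (0.15), and without replicate 4 of that group -1.59 (0.148) and -1.76 (0.126). Without the 4 libraries under 5000000 counts they were -2.66 and -2.57 (edgeR adjusted p = 0.0466 and 0.0402).

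The 0.1 and 0.5 mg/kg males showed no such shift by probe Elovl3_70081, with 835, 128, 383, 92.2 and 312 CPM and 274, 831, 1065, 305 and 299 CPM. These values overlapped the controls. The 2 probes tracked each other from mouse to mouse, with r = 0.93 between their deviations from group means over 37 mice.

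In females Elovl3 was low and went the other way. Control females gave 7.23, 5.22, 19.7, 1.67 and 1.42 CPM by probe Elovl3_70081, and females at 5 mg/kg gave 13.4, 10.9, 19.4 and 31.4 CPM. Control replicate 3 lay among the treated mice and the other 4 controls lay below all of them. The log2 fold changes of 1.42 (SE 0.65) and 1.38 (SE 0.66) for the 2 probes were not called (edgeR adjusted p = 0.335 and 0.378). Without that control they were 2.27 and 2.35 (edgeR adjusted p = 0.0561 and 0.0532).

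Control males exceeded control females in Elovl3 by 6.30 (SE 0.74) on the log2 scale by probe Elovl3_70081, without overlap (edgeR adjusted p = 5.26e-08). At 5 mg/kg the same difference was 2.98 (SE 0.71; edgeR adjusted p = 0.0106). The change of this difference with dose, tested as an interaction of sex and dose, was -3.32 (SE 0.91) for probe Elovl3_70081 and -3.41 (SE 0.94) for probe Elovl3_30484. Neither passed (edgeR adjusted p = 0.113 and 0.112). Both passed with DESeq2 (adjusted p = 0.0953 and 0.0965), with no filter on low counts (edgeR adjusted p = 0.000691 and 0.000715) and without the 4 libraries under 5000000 counts (edgeR adjusted p = 0.051 and 0.0424).

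Other elongases were measured beside it. Elovl5 rose in both sexes at 5 mg/kg, by 1.01 (SE 0.27) in males and 0.89 (SE 0.27) in females on the log2 scale (edgeR adjusted p = 0.0142 and 0.0615). In males Elovl1 rose by 0.95 (SE 0.32) and Elovl6 by 1.41 (SE 0.48), and Elovl2 had a log2 fold change of -0.56 (SE 0.21) (edgeR adjusted p = 0.0518, 0.061 and 0.0879). Of the 6 elongases tested in males, 3 thus rose and 2, with Elovl3 among them, fell. Over all genes 4.64% were called higher and 8.86% lower in these males.

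Selenbp2 (chr3:94693556-94704413, plus strand), a selenium-binding protein of male liver, also fell in males at 5 mg/kg. Probe Selenbp2_80761 gave 25.7, 23.7, 123, 78.0 and 48.0 CPM in control males and 8.73, 22.8, 17.3 and 26.9 CPM at 5 mg/kg. The log2 fold change was -1.65 (SE 0.45; edgeR adjusted p = 0.0142), with 1 treated male inside the control range and 3 below it. Probe Selenbp2_70614 gave 15.01, 20.1, 187, 172 and 43.8 CPM in control males and 4.72, 19.9, 4.88 and 21.8 CPM at 5 mg/kg. Here 2 treated males lay below all controls and 2 within their range, with a log2 fold change of -2.72 (SE 0.83; edgeR adjusted p = 0.0308). Both calls held when any single mouse was left out. Without the 4 libraries under 5000000 counts, 2 of which are treated males, the log2 fold changes were -1.31 and -2.12 and neither was called (edgeR adjusted p = 0.161 and 0.201).

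At lower doses Selenbp2 overlapped the control males by both probes. Probe Selenbp2_80761 measured 93.7 ± 45.8 (SD, n = 5) CPM at 0.1 mg/kg and 91.9 ± 76.0 (SD, n = 5) at 0.5 mg/kg, beside 59.8 ± 41.8 (SD, n = 5) in controls. In females it stayed between 24.9 ± 7.38 and 29.95 ± 6.06 CPM (SD, n = 5) over the 4 doses. The log2 fold change in females at 5 mg/kg was 0.14 (SE 0.42) by probe Selenbp2_80761 and -0.71 (SE 0.95) by probe Selenbp2_70614, and neither was called (edgeR adjusted p = 1 and 0.99).

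The sex difference in controls was larger by one Selenbp2 probe than by the other, and this contrast between probes was not tested. Control males exceeded control females by 5.55 (SE 0.88) on the log2 scale by probe Selenbp2_70614, without overlap (edgeR adjusted p = 3.2e-05). By probe Selenbp2_80761 the difference was 1.26 (SE 0.41), with overlap, and was not called (edgeR adjusted p = 0.119). Of the 11 alternatives other than leaving out single mice, 7 called a difference. In 1 of these both probes of the gene were summed (2.48, adjusted p = 0.00137), which is no value of this probe alone. The others gave adjusted p = 0.02 to 0.0914. Female controls gave 0.21, 5.94, 1.69, 0.688 and 0.833 CPM by probe Selenbp2_70614 and 29.9, 31.3, 21.5, 13.6 and 28.4 CPM by probe Selenbp2_80761. Selenbp1, whose transcript aligns to that of Selenbp2 with 98.5% identity over 1712 bases, was higher in female than male controls, at 87.6 ± 9.65 against 49.9 ± 11.4 CPM (SD, n = 5 each; log2 difference -0.81, edgeR adjusted p = 0.0477). It was not called at 5 mg/kg, with 56.8 ± 17.2 CPM in males and 75.6 ± 13.6 CPM in females (SD, n = 4 each). Whether reads of Selenbp1 reached probe Selenbp2_80761 was not tested, so that its level is uncertain.

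A1bg (chr15:60896859-60923012, minus strand), a plasma glycoprotein made in female mouse liver, fell in females at 5 mg/kg. Control females measured 2134, 1315, 4255, 2644 and 155 CPM. Females at 5 mg/kg measured 530, 255, 73.4 and 182 CPM. Control replicate 5 was as low as the treated dams, and the other 4 controls were above them all, with a log2 fold change of -3.01 (SE 0.64; edgeR adjusted p = 0.00198). At 0.1 mg/kg the level was 1529 ± 1160 CPM (SD, n = 5) and at 0.5 mg/kg 2077 ± 1130 CPM (SD, n = 4), which overlapped the controls at 2101 ± 1528 CPM (SD, n = 5).

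In males A1bg was low and went up. Control males measured 2.88, 3.76, 2.14, 2.79 and 1.56 CPM, from 11 to 29 counts each. Males at 5 mg/kg measured 4.01, 4.74, 10.1 and 5.56 CPM, from 17 to 43 counts each. Each treated male was above each control, but the log2 fold change of 1.15 (SE 0.72) was not called (edgeR adjusted p = 0.355). A1bg was the 1 probe of 10 whose male groups did not overlap at 5 mg/kg, with the treated mice above, where 2.78% of all probes did this.

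The A1bg difference between the sexes narrowed at the top dose. The log2 difference of male from female mice was -9.63 (SE 0.81) in controls, where males were 792-fold lower (edgeR adjusted p = 5.01e-12). At 5 mg/kg it was -5.47 (SE 0.77), where males were 44.3-fold lower (edgeR adjusted p = 1.04e-05). The interaction of sex and dose was 4.16 (SE 0.94; edgeR adjusted p = 0.026). It was the 1 probe of these genes called for interaction, where 0.63% of all probes were called. Under a robust edgeR fit the adjusted p was 0.131.

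The bases before the RefSeq start of A1bg are shown because they hold an HNF6-type core, in capitals, at -150 to -145. The stretch is chr15:60921349-60921520 (GRCm38.p6, minus strand), and its last base is 79 before the start. That start lies inside the GENCODE span of the gene, which begins at base 60923012 on this strand.
A1bg: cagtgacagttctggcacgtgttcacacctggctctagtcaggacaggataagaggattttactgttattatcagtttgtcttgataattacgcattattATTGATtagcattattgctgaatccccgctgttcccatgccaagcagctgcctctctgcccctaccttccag
A STAT5-type match, TTCCAGGAA, lies at -84 to -76 and runs over the end of this stretch into an annotated exon of another transcript.

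Between control males and females, 6 of the 10 probes were called, 3 higher in males and 3 higher in females, where 2.6% of all probes were called. For these 6 the sexes did not overlap, where 4% of all probes did not. At 5 mg/kg 7 of the 10 were called, 3 higher in males and 4 higher in females, where 5.16% of all probes were called, and 5 of the 10 did not overlap, where 8.72% of all probes did not. Probe Elovl3_30484 was one of the 7, with a log2 difference of 2.53 (SE 0.71; edgeR adjusted p = 0.0375), and it was lost without male 5 mg/kg replicate 1 (1.59, adjusted p = 0.229), female 5 mg/kg replicate 2 (2.37, adjusted p = 0.109) or replicate 3 (2.38, adjusted p = 0.111), and without the 4 libraries under 5000000 counts (2.01, adjusted p = 0.114). The 6 probes called in controls had the same direction at 5 mg/kg.

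For probe Elovl3_70081 the group means ran from 5.45 CPM in females at 0.1 mg/kg through 7.04, 7.16 and 18.8 in females at 0, 0.5 and 5 mg/kg to 149 in males at 5 mg/kg and 350, 555 and 555 in males at 0.1, 0.5 and 0 mg/kg. Neighbours in this order overlapped, except that each female at 5 mg/kg was above each female at 0.5 mg/kg and below each male at 5 mg/kg. For A1bg the males ran from 2.63, 2.78 and 3.59 to 6.11 CPM in order of dose, and the females from 260 CPM at 5 mg/kg to 1529, 2077 and 2101 CPM at 0.1, 0.5 and 0 mg/kg. The female 5 mg/kg group did not overlap any male group.

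The genes with the pattern most like each of these, by Pearson r of log2 CPM over the 37 mice, are given as a description, since all mice share the split by sex. For A1bg they were Sult3a1, Cyp3a44 and Cyp2c69 with r of 0.96 each. For Elovl3 they were Scp2 (0.93), Ces3a (0.93) and Enpp3 (0.92), and for Cux2 Slc22a26 (0.95), Prlr (0.93) and Slc22a27 (0.92). Probe Selenbp2_80761 was followed by Cpsf6 (0.71), Kdm5d (0.71) and Tuft1 (0.70), Hsd3b5 by AC240971.1 (0.76), Aox3 (0.71) and Mup4 (0.70), and Bcl6 by Slc45a3 (0.63), Fpgs (0.58) and Slc19a1 (0.57). Over deviations from the 8 group means, which take out sex and dose, A1bg stayed with Cyp2c69 (0.78) and Elovl3 was closest to Clpx (0.71). Cux2 was closest to 4933408B17Rik (0.63), Bcl6 to Slc45a3 (0.64), Selenbp2 to Slc25a37 (0.67) and Hsd3b5, which had few counts, to Polr3b (0.74). Each r is the highest over the other genes tested, and no chance level was computed for it. Between the members, the most negative r over the deviations of the 18 females was -0.61, for probes Elovl3_70081 and Cux2_71776. The same Elovl3 probe had r = -0.58 with Cux2_66345 and -0.59 with Cux2_73600. Over the 19 males the first pair had r = 0.34, where Cux2_71776 had at most 10 counts in any mouse. A relation between the 2 genes was not tested.

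Other genes known to follow the growth hormone pattern were read as lists. Of 18 male-pattern genes tested, 15 were higher in control males than control females and none lower, and of 26 female-pattern genes 22 were lower in control males and none higher. Over all 13004 genes, read by the probe with the most counts, 1.34% were higher and 1.51% lower. The lists thus held the sex difference in these cohorts that their names say. They were chosen with earlier results of these data known, so that this is no independent check.

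In males at 5 mg/kg, 11 of the 18 male-pattern genes fell and none rose, with a median log2 fold change of -1.25, against 8.86% lower, 4.64% higher and a median of -0.11 over all genes. Serpina1e, an alpha-1 antitrypsin, went from 10911 ± 973 to 3439 ± 1348 CPM (SD, n = 5 and 4), a log2 fold change of -1.67 (SE 0.19). Ugt2b1, a glucuronosyltransferase, went from 139 ± 56.9 to 41.5 ± 2.85 CPM, and Mup3, a major urinary protein, from 6458 ± 2771 to 1317 ± 644 CPM. Gstp1, a glutathione transferase of male liver, went from 4273 ± 1819 to 1767 ± 278 CPM, a log2 fold change of -1.27 (SE 0.25). The edgeR adjusted p of these 4 genes ran from 1.73e-08 to 0.000373. Under each of 3 other scalings of the libraries 10 of the list fell and 1, Keg1, rose, and without the 4 libraries under 5000000 counts 8 fell and none rose.

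In females at 5 mg/kg the male-pattern genes split, with 4 lower, 3 higher and a median of -0.34. Over all genes 2.51% were lower and 2.42% higher, with a median of -0.02. The 3 higher were Gstp1 and the close paralogs Cyp4a12a and Cyp4a12b, between which reads may be shared. Serpina1e, Ugt2b1 and Mup3 fell here too, with log2 fold changes of -1.43 (SE 0.19), -1.85 (SE 0.24) and -2.48 (SE 0.35; edgeR adjusted p at most 2.72e-06). Cyp4a12a, a fatty acid omega-hydroxylase of male liver, rose from 0.973 ± 0.959 to 197 ± 82.8 CPM (SD, n = 5 and 4; log2 fold change 7.65, SE 0.68, edgeR adjusted p = 6.11e-11), beside 446 ± 167 and 479 ± 46.9 CPM in the males. It was also the 1 gene of the list called at 0.5 mg/kg, at 16.4 ± 24.3 CPM in females (edgeR adjusted p = 0.000269), where 1 of the 4 mice had 52.6 CPM and the lowest 1.79. Gstp1 rose from 386 ± 102 to 762 ± 243 CPM (log2 fold change 0.98, SE 0.24, edgeR adjusted p = 0.00866). For Cyp4a12a and Gstp1 the change itself differed between the sexes, with interactions of -7.55 (SE 0.84) and -2.26 (SE 0.34; edgeR adjusted p = 5.51e-07 and 0.000134).

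**Figure D3:**
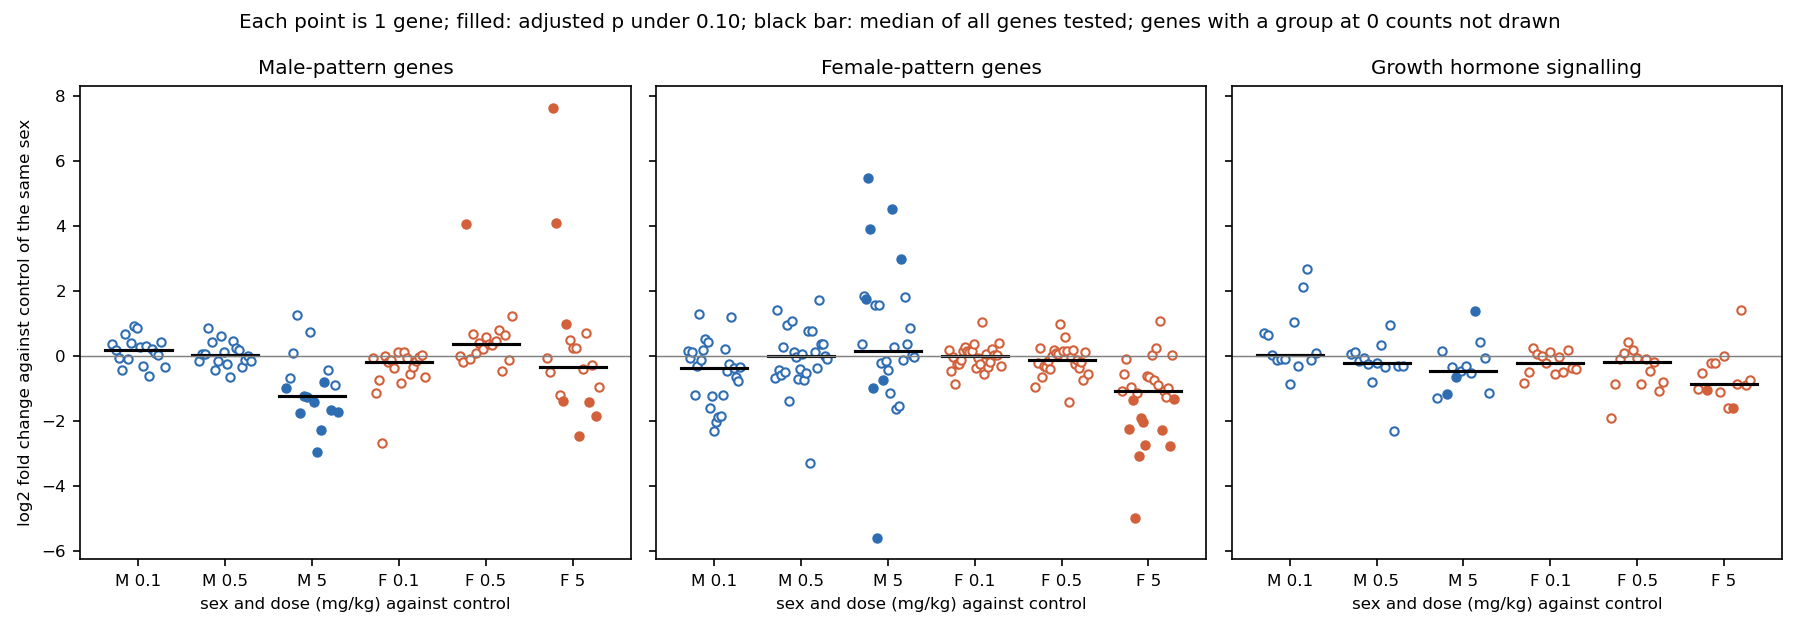
Log2 fold change of each gene of the male-pattern, female-pattern and growth hormone signalling lists against the control of the same sex, for males (M, blue) and females (F, orange) at each dose in mg/kg. Filled points passed an adjusted p under 0.10, and black bars are medians over all genes tested, at -1.25 for male-pattern genes in males at 5 mg/kg and at -1.08 for female-pattern genes in females at 5 mg/kg.

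Of the 26 female-pattern genes, 10 fell in females at 5 mg/kg and none rose, with a median of -1.08. Cyp2c69, a P450, went from 79.8 ± 53.8 to 2.52 ± 1.57 CPM (SD, n = 5 and 4), a log2 fold change of -4.98 (SE 0.54; edgeR adjusted p = 7.81e-09). Cyp3a16 went from 325 ± 91.2 to 37.9 ± 15.8 CPM, and the P450 genes Cyp3a41a and Cyp3a41b from 2738 ± 802 to 725 ± 250 and from 2568 ± 504 to 632 ± 200 CPM. These last 2 genes are close paralogs, and reads may be shared between them. With each single mouse left out, 7 to 11 of the list fell in females, and with each sex fitted apart 15 fell and 1, Rtn4, rose.

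In males at 5 mg/kg, 5 female-pattern genes rose and 3 fell, with a median of 0.15, against 4.64% higher and 8.86% lower over all genes. With libraries scaled by total counts 6 rose and 1 fell. With each sex fitted apart, 21 genes of the list were tested in males, of which 3 rose (Cyp2b9, Hao2 and Rtn4) and 2 fell. Cyp2b9, a P450 also known as a target of the nuclear receptor CAR, rose from 2.90 ± 2.25 to 43.6 ± 20.1 CPM (SD, n = 5 and 4; log2 fold change 3.91, SE 0.44, edgeR adjusted p = 1.91e-08). Hao2, a peroxisomal hydroxy acid oxidase, rose from 0.713 ± 1.24 to 16.4 ± 13 CPM, with 1 of the 4 treated males at 0.472 (log2 fold change 4.52, SE 0.67, edgeR adjusted p = 5e-06). Cyp2b13 went from at most 1 count per control male to 2.88 ± 2.16 CPM (edgeR adjusted p = 6.99e-05), with the lowest treated male at 0 counts. Cyp39a1, a sterol hydroxylase, fell from 7.27 ± 3.83 to 0.146 ± 0.224 CPM (edgeR adjusted p = 6.92e-05). Leaving out single mice gave 4 to 7 genes that rose and 1 to 4 that fell. The interaction was called for 8 genes of the list, 7 of them more positive in males and Cyp39a1 more negative, against 0.185% and 0.438% of all genes. Cyp3a41b and Cyp39a1 were near the threshold (edgeR adjusted p = 0.0961 and 0.0804). No gene of the list was called more negative with total-count scaling, thinned counts, a robust fit or a threshold of 0.05. Thinned counts, the robust fit and that threshold also lost Cyp3a41b.

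**Figure D4:**
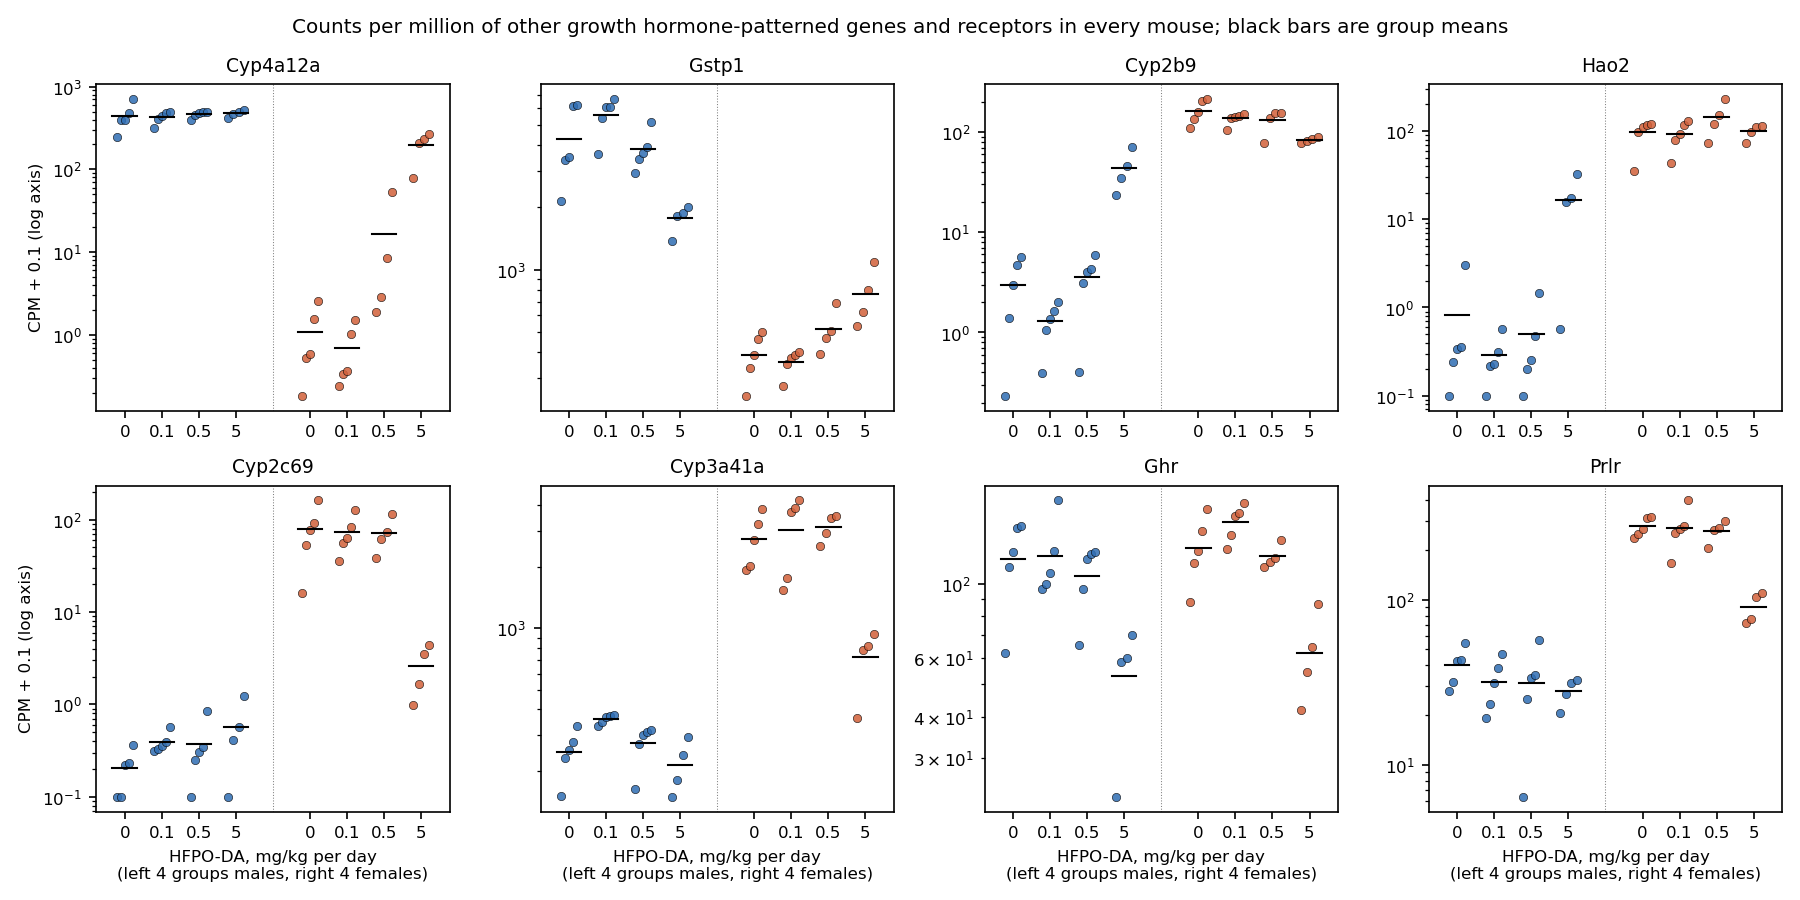
CPM, on a log axis after adding 0.1, in each mouse for Cyp4a12a and Gstp1 of the male-pattern list, Cyp2b9, Hao2, Cyp2c69 and Cyp3a41a of the female-pattern list, and the receptors Ghr and Prlr, with groups as in the plot of the members. Black bars are group means. Females at 5 mg/kg stand at 197 CPM for Cyp4a12a beside 479 in the males of that dose, and both sexes are lower for Ghr at 5 mg/kg than in controls.

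Growth hormone signalling genes were read last, as 13 tested genes of a list of 14. Ghr, the growth hormone receptor, fell in both sexes at 5 mg/kg. Control males measured 119 ± 35.4 CPM and treated males 52.7 ± 20.5 (SD, n = 5 and 4), and control females 128 ± 30.1 against 61.8 ± 19.1 in treated dams. The log2 fold changes were -1.16 (SE 0.26) and -1.05 (SE 0.26; edgeR adjusted p = 0.00205 and 0.00866). Prlr, the prolactin receptor, fell in females from 277 ± 36.8 to 90.5 ± 19.1 CPM (log2 fold change -1.61, SE 0.31, edgeR adjusted p = 0.000636) and was not called in males, at 39.9 ± 10.6 and 27.8 ± 5.49 CPM.

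In males Igf1, the main growth factor induced by the hormone, fell from 29.5 ± 7.02 to 18.7 ± 6.67 CPM (SD, n = 5 and 4; log2 fold change -0.65, SE 0.24, edgeR adjusted p = 0.0908). Igfals, which carries IGF-I in a serum complex, was at 0 counts in all 4 treated males against 69 counts in the controls, at least 13.6-fold lower, though 1 control was at 0 as well (edgeR adjusted p = 0.01). Socs2, an inhibitor of the receptor's signal, rose from 3.69 ± 2.12 to 9.55 ± 6.07 CPM (log2 fold change 1.39, SE 0.53, edgeR adjusted p = 0.0959). That call was lost with no filter on low counts, with each sex fitted apart, with thinned counts and at an adjusted p under 0.05. At 0.1 mg/kg Socs2 stood at 16.1 ± 3.32 CPM (SD, n = 5), with each mouse above each control, and was not called (log2 fold change 2.12, SE 0.51, edgeR adjusted p = 0.513). In females Stat5a (22.02 ± 6.77 to 11.8 ± 2.93 CPM) and Onecut1, which encodes HNF6 (16.8 ± 12.1 to 5.48 ± 4.14 CPM), did not pass. In all, 3 of the 13 genes fell and 1 rose in males, with a median of -0.45. The 3 that fell became 2 under each of 3 other scalings, with DESeq2 and without the 4 libraries under 5000000 counts. With thinned counts 1 fell, and with a filter on a mean of at least 10 counts 3 did. Over all genes 8.86% were lower and 4.64% higher in males. In females 2 fell and none rose, with a median of -0.87, against 2.51% and 2.42%.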

How the data were processed

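RNA of 40 mouse livers, cut as fixed and embedded sections, was measured with TempO-Seq, and the authors left out 3 whose sequencing depth or number of probes was low, so that 37 were used. The deposited values are raw counts of reads per probe, which the authors obtained by demultiplexing with bcl2fastq 2.17.1.14 and aligning to the probe sequences with Bowtie, both named in the submitters' processing notes (the version of Bowtie is not given in the sources used here). They tested counts with DESeq2. All count columns were matched to a labelled mouse, and 0 columns were left out.

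Here edgeR 4.0.16 (R 4.3.3, limma 3.58.1) was fitted once to all 37 mice with a term for each of the 8 groups, filterByExpr, TMM scaling and the quasi-likelihood test. P-values were adjusted by Benjamini-Hochberg over 18570 probes, and under 0.10 a probe was called. Each dose was set against the same-sex control, males against females at 0 and 5 mg/kg, and the difference of those changes as an interaction. Levels are CPM of TMM-scaled totals, and correlations used log2 CPM with a prior count of 2. A group at 0 was given a floor of 3 counts over the group, and floors cover counting error only. No replicate pair of the 68 within groups was as alike as counting noise allows (chi-square per degree of freedom 21.7 to 125). A library with more counts gives smaller counting error, and the males had the shallower ones. The code was tested on simulated data.

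Alternatives were 3 other scalings, 2 other filters, each sex apart, probes summed by gene, thinned counts, DESeq2 1.42.0, a robust fit, a threshold of 0.05, leaving out each mouse and, chosen after seeing the totals, leaving out the 4 libraries under 5000000 counts. All probes of the 6 genes were named. Of each list, up to 4 genes per sex with the smallest p at 5 mg/kg were named, as were paralogs of a described family and the 3 genes most like each member. A gene of the female-pattern list is not reported here. Members and lists were chosen with earlier results of these data known. Sequences come from RefSeq tables and positions from GENCODE, both on GRCm38, read with Python 3.11.15, and the alignments were made with Biopython 1.88. Plots were drawn with matplotlib 3.10.9.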

Additional observations from a re-analysis of the deposited data

Results flagged for a closer look

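Of 72 groups of values tested, 10 held a mouse far from the others of its group by Dixon's criterion. Chance gives about 1 in 20, but that rate assumes normally distributed values, which groups near 0 counts do not have. Such groups were Hsd3b5 in control females and Cux2 in males, where the mouse apart had 1 to 26 counts. Female control replicate 2 had 0.922 CPM of Hsd3b5, with the other 4 at 0, and 5.94 CPM of Selenbp2_70614, with the next at 1.69. Female control replicate 3 was high for Elovl3_30484 (17.6 CPM, next 4.82) and for Bcl6 (219 CPM, next 52.8). Cux2_71776 was high in male 0.1 mg/kg replicate 1 (0.923 CPM, next 0.213) and male 0.5 mg/kg replicate 3 (0.37 CPM, next 0.103). Cux2_73600 was high in male control replicate 5 (3.69 CPM, next 0.48) and male 0.1 mg/kg replicate 4 (0.238 CPM, others 0). It was low in female 0.5 mg/kg replicate 3 (2.63 CPM, next 4.40) and in female 5 mg/kg replicate 4 (0 CPM, next 2.80).

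The change at 5 mg/kg differed between males and females, by the interaction term of edgeR's quasi-likelihood test, for 11 genes, given as the male minus the female log2 change. Among the members it was A1bg, with 4.16 (adjusted p = 0.026). Of the male-pattern list, Cyp4a12a had -7.55 and Gstp1 had -2.26. Of the female-pattern list, Cyp2b13 had 7.73, Cyp2c69 6.55, Cyp2b9 4.89, Cyp3a16 4.66, Hao2 4.48, Cyp3a41a 1.71 and Cyp3a41b 1.28 (adjusted p = 0.0961), and Cyp39a1 had -4.45 (adjusted p = 0.0804). Cyp2b13, Hao2, Cyp2c69 and Cyp3a16 rested on few counts in control males, as did A1bg (11 to 29 per mouse) and Cyp2b9 (1 to 39). Cyp39a1 had at most 2 counts per male at 5 mg/kg, and Cyp4a12a at most 26 per control female. Sex could not be told apart from age, doses received and lactation.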

How the results depend on the processing

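The 5 member probes called in males at 5 mg/kg became 3 with each sex fitted apart or with a robust edgeR fit, and 2 without the 4 libraries under 5000000 counts or with adjusted p under 0.05. Leaving out single mice gave 2 to 5, with 3 without male control replicate 3 or male 5 mg/kg replicate 3 and 2 without male 5 mg/kg replicate 4. In females the 3 calls became 1 (A1bg) with thinned counts, and 2 to 5 without single mice. The 5 came without female control replicate 3, when both Elovl3 probes passed too, and Cux2_71776 was lost (adjusted p 0.102 to 0.176) without female control replicates 2, 4 or 5 or female 5 mg/kg replicates 2, 3 or 4. The interaction calls went from 1 to 4 with no filter on low counts, 3 with DESeq2, 0 with a robust fit and 3 without those 4 libraries, and 1 to 3 without single mice. Counts between the sexes were 6 or 7 without single mice, and counts at 0.1 and 0.5 mg/kg were 0 throughout.

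Uncalled values that changed sign in females at 5 mg/kg with thinned counts were those of Selenbp2_80761 (-0.24) and Cux2_73600 (0.46). With its 2 probes summed, Selenbp2 gave 0.10 in females at 5 mg/kg and 0.20 between the sexes at that dose. These sums are values of neither probe alone. Without single mice Bcl6 ran from -0.76 to 0.14 in males at 5 mg/kg and from -0.55 to 0.18 between the sexes at that dose, and in females at 5 mg/kg Selenbp2_70614 ran from -1.11 to 0.38 and Selenbp2_80761 from -0.032 to 0.29. The cause was not tested. Scaling by total counts moved the median log2 change of all probes in males at 5 mg/kg from -0.12 to 0.08, and the 5 calls there and the 3 in females held under all 3 scalings. No paired analysis was possible because the titles give animal numbers and replicate numbers were given in accession order.

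Groups were of 4 or 5 mice. Spread between mice was large for Bcl6, Elovl3, Selenbp2 and A1bg and for probe Cux2_71776 in females. Hsd3b5 and, in males, Cux2 had few counts. These points limit the size of change that the groups can show. Sections of whole liver, 1 sampling time and the absence of a pulse measurement mean that each value is a level at 1 moment.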
